A study of Rattus norvegicus with 8 samples.

Results

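The complement components and regulators described here are 7 genes, C3, Cfb, C1r, C1s, Serping1, Cd55 and Cd59, chosen by name from a table of 13536 rows of rat nucleus pulposus cells. They take up 8 rows, because 2 rows carry the symbol Cfb. All 8 rows passed the filter on low values, which asked for 10 normalized counts in at least 4 of the 8 libraries and left 11847 rows. The ShHuR group holds 4 libraries of primary nucleus pulposus cells from Wistar rats that received a lentiviral short hairpin RNA against HuR, the RNA-binding protein encoded by Elavl1. The ShCTR group holds 4 libraries of the same kind of cells that received the non-target hairpin of the pLKO.1 vector. Both groups were grown out of disc explants in medium with fetal bovine serum, carry an integrated hairpin vector and spent the last 24 h at 1% oxygen, so no library shows untransduced cells or cells at higher oxygen. The labels give no age or sex and leave unsaid whether replicates were separate animals or cultures, so p-values cover only the spread between these samples.

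Complement is a set of secreted and membrane proteins of innate immunity. The classical pathway starts when C1q carries the proteases C1r and C1s to a target, and the alternative pathway is kept running by C3b and factor B, the product of Cfb, which together form a C3 convertase. All pathways cleave C3. Host cells limit them with the C1 inhibitor Serping1, with CD55, which takes convertases apart, and with CD59, which blocks the membrane attack complex. Liver makes most plasma complement, and fibroblasts, chondrocytes and macrophages also make components of it.

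The targeted gene was low in each ShHuR library. Elavl1 had 63.8, 6.06, 8.36 and 49.6 normalized counts in ShHuR replicates 1 to 4, against 554.8, 699.3, 582.5 and 644.3 in ShCTR replicates 1 to 4. Recovered reads ran from 6797360 to 8038192 in ShHuR libraries and from 9096738 to 12179515 in ShCTR libraries. Replicate 1 of both groups stood apart from the other replicates over the whole table. Values are given by pair because same-numbered libraries deviated together, though replicates 2 and 3 also did so across numbers. Limma fitted with replicate number as a block is called blocked limma here, and a gene is said to rise or fall only where it passed that fit, at an adjusted p of 0.05 over all 11847 rows. Without the block limma called 0 rows (978 at an unadjusted p under 0.05), edgeR called 0 and DESeq2 called 248. Of 16 nucleus pulposus and notochord markers 12 had a row, and their summed normalized counts ran from 8139 to 10647 in ShHuR and from 8589 to 13571 in ShCTR libraries (0 rose and 3 fell, Acan, Car12 and Ncam1). Krt8 was at 13.1 to 203.6 in ShHuR and 24.2 to 166.7 in ShCTR libraries, and Sox9 was at 8.08 to 32.4 in ShHuR and 13.9 to 44.8 in ShCTR libraries. Of 12 fibroblast and annulus markers 11 had a row, and their sum ran from 47131 to 171864 in ShHuR and from 60080 to 209184 in ShCTR libraries (1 rose and 4 fell). Of 7 hepatocyte markers only Tf had a row. Of 6 endothelial markers 3 had a row, and the only one to pass the filter, Flt1, rose (log2 difference 1.16; blocked limma, adjusted p = 0.0271). The sum of those 3 ran from 427 to 1425 in ShHuR and from 247.5 to 557.9 in ShCTR libraries, with Tek at 0 to 14.6 in ShHuR and 0.732 to 1.83 in ShCTR libraries and Vwf at 1.01 to 8.36 in ShHuR and 3.58 to 7.47 in ShCTR libraries, and its part in the complement values was not tested.

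Of the 8 complement rows, 1 passed blocked limma, a Cfb row, as higher in ShHuR. Over all tested rows 15.2% passed, 7.16% as higher and 8.05% as lower, so the count among complement rows is near the background. The median log2 difference of the 8 rows was 0.18, against 0.01 over all tested rows, with 4 rows above 0 and 4 below. For pairs 1 to 4 the medians were 0.0043, 0.80, -0.17 and 0.12, and no single direction ran through the set. Within all 4 pairs 2 rows, C3 and a Cfb row, were higher in ShHuR, which 22.3% of tested rows were, and 1 row, C1s, was lower, which 19.4% were. The groups overlapped in each of the 8 rows, whereas 2.52% of tested rows had every ShHuR value above every ShCTR value and 3.09% had every one below. Other fits and the authors gave these counts: blocked edgeR 1 of 8 (15.6% of tested rows), blocked DESeq2 4 of 8 (17.3%), blocked limma on values scaled to library totals 2 of 8 (16.9%), blocked limma on leaving out pair 1 2 of 8 (23.9%), DESeq2 with no block 0 of 8 (2.11%), while the authors' deposited table calls 4 of 8 (16.3% of its rows). The exact permutation test over the 8 libraries, two-sided, gave p between 0.2 and 0.686 for the 8 rows, unadjusted, where 0.0286 is the smallest that 4 against 4 can give.

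**Figure D1:**
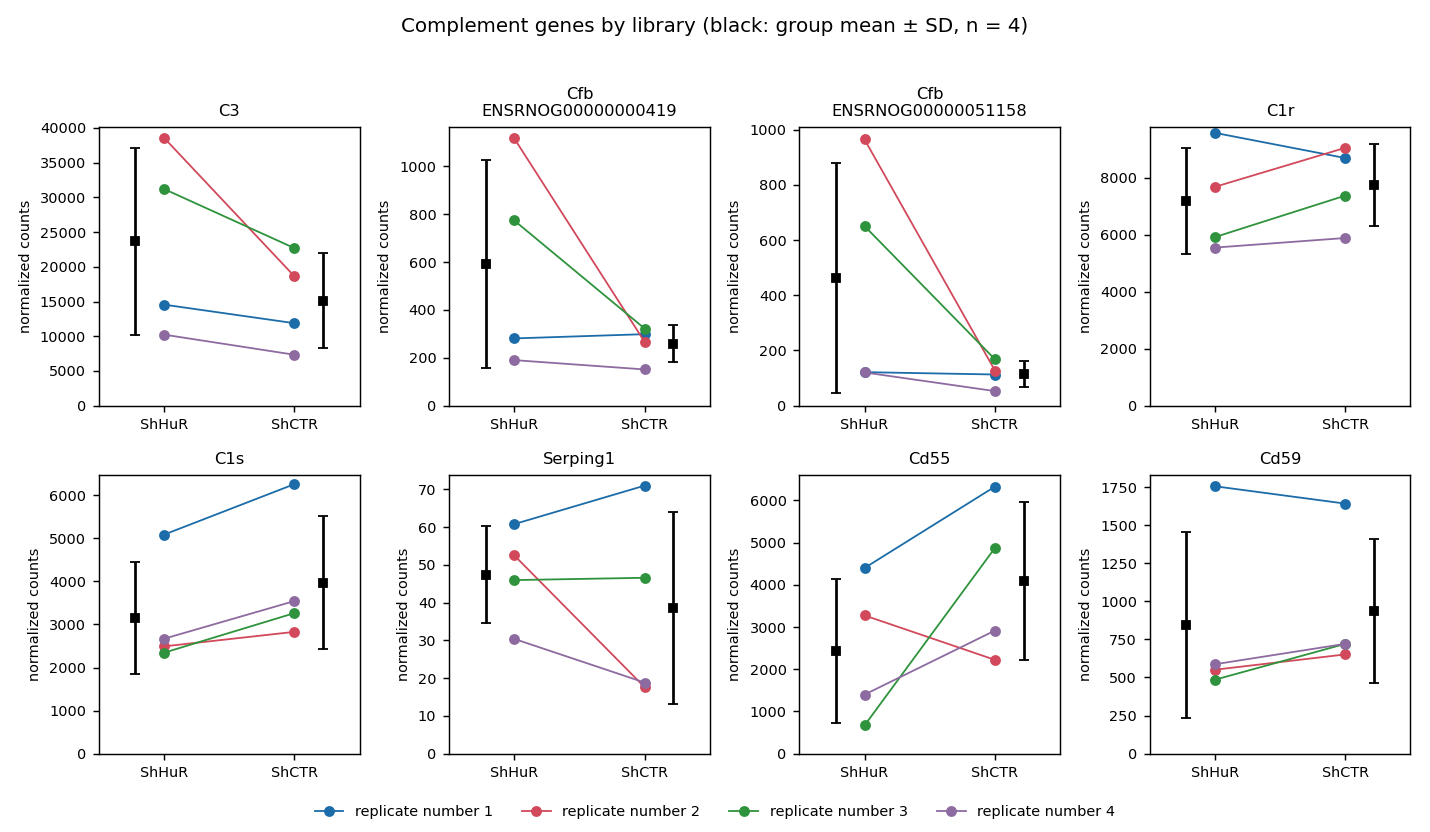
Normalized counts (vertical axes, each from 0) of the 8 complement rows in ShHuR and ShCTR libraries, with lines joining libraries of the same replicate number and black squares for the group mean ± SD (n = 4). C3 and the Cfb row ENSRNOG00000051158 are higher in ShHuR on every line, C1s is lower on every line, and the groups overlap in every panel.

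C3 encodes the central component that every pathway cleaves. It had 14557, 38600, 31216 and 10238 normalized counts in ShHuR replicates 1 to 4, against 11881, 18643, 22693 and 7338 in ShCTR replicates 1 to 4. ShHuR was higher in each of the 4 pairs, yet the groups overlapped, because replicates 2 and 3 were high in both groups and replicate 4 was low in both. The means were 23653 ± 13458 in ShHuR and 15138 ± 6851 in ShCTR (SD, n = 4), and the log2 difference was 0.57 (SE 0.19; blocked limma, adjusted p = 0.0794). C3 thus did not pass blocked limma or blocked edgeR (adjusted p = 0.083), whereas blocked DESeq2 called it (adjusted p = 0.00629), as did blocked limma on values scaled to library totals (0.69, adjusted p = 0.0411), a scaling that moved the median of all rows to 0.13. Relative to the median of all rows the difference was 0.57 so scaled and 0.56 on the authors' scaling. The authors' deposited table lists C3 at 0.55 with an adjusted p of 0.0064. C3 took 0.141%, 0.475%, 0.399% and 0.132% of recovered reads in ShHuR replicates 1 to 4, against 0.113%, 0.209%, 0.242% and 0.09% in ShCTR replicates 1 to 4. In these bulk libraries a difference in the number of producing cells and a difference in RNA per cell cannot be told apart, here and for the other genes.

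Cfb encodes factor B, the protease subunit of the alternative convertase, and a row of it showed the widest mean log2 difference of the 7 genes. The row with identifier ENSRNOG00000051158 had 121.6, 964.5, 650.7 and 120.5 normalized counts in ShHuR replicates 1 to 4, against 113, 127.4, 168 and 52.9 in ShCTR replicates 1 to 4. ShHuR replicates 2 and 3 stood far above all others, while pair 1 hardly differed. That row rose in ShHuR, with means of 464.3 ± 416.6 in ShHuR and 115.3 ± 47.7 in ShCTR (SD, n = 4) and a log2 difference of 1.53 (SE 0.39; blocked limma, adjusted p = 0.0382; without the block, 0.634). Pair by pair it was 0.10, 2.91, 1.95 and 1.17. On leaving out pairs 1 to 4 in turn, blocked limma gave log2 differences of 2.01, 1.07, 1.40 and 1.65, with adjusted p-values of 0.00285, 0.124, 0.11 and 0.125. The difference stayed above 0 in each, and the call was lost without pair 2, 3 or 4, in fits that called 62, 523 and 0 rows of the whole table. With no mean-variance trend the adjusted p was 0.0813.

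The other Cfb row, ENSRNOG00000000419, had 281.1, 1117, 774 and 190.4 normalized counts in ShHuR replicates 1 to 4, against 298.9, 266.5, 322.3 and 151.4 in ShCTR replicates 1 to 4. It was high in the same ShHuR libraries and lower in ShHuR in pair 1 only. Blocked limma gave it a log2 difference of 0.89 (SE 0.32, adjusted p = 0.0927). On leaving out pairs 1 to 4 in turn the log2 difference was 1.22, 0.50, 0.77 and 1.08, with adjusted p-values of 0.0169, 0.279, 0.235 and 0.157, so it passed only without pair 1. The authors' deposited table calls both rows, at 1.26 (adjusted p = 0.000766) and 0.77 (adjusted p = 0.0369). Summed before the fit, the rows had a log2 difference of 1.13 (SE 0.34; blocked limma, adjusted p = 0.0643). Because both rows name the same gene, the counting could have split its reads between them, and each row is uncertain on its own. In the RefSeq table of the GRCr8 assembly Cfb is a single gene next to C2, the convertase protease of the classical pathway. C2 itself showed a log2 difference of 0.06 (SE 0.15; blocked limma, adjusted p = 0.79).

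The ratio of the Cfb rows within a library does not depend on how libraries are scaled. ENSRNOG00000051158 over ENSRNOG00000000419 was 0.432, 0.863, 0.841 and 0.633 in ShHuR replicates 1 to 4, against 0.378, 0.478, 0.521 and 0.349 in ShCTR replicates 1 to 4. It was higher in ShHuR in 4 of 4 pairs, with means of 0.692 ± 0.202 in ShHuR and 0.432 ± 0.0814 in ShCTR (SD, n = 4), but the exact permutation test, two-sided, gave p = 0.0857, or 0.129 adjusted over the 3 ratios computed. The groups' ratios overlapped, and the difference did not pass that test. The ratio of the first Cfb row to C3 was 0.00835, 0.025, 0.0208 and 0.0118 in ShHuR replicates 1 to 4, against 0.00951, 0.00683, 0.0074 and 0.00721 in ShCTR replicates 1 to 4 (exact permutation test, two-sided, p = 0.0571, adjusted 0.129). It was higher in ShHuR in 3 of 4 pairs. For both of these ratios the Cfb row with the larger log2 difference in blocked limma was set on top. Their direction was thus chosen from the same values, and their p-values do not allow for that choice. The permutation tests also ignore the pairs.

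**Figure D2:**
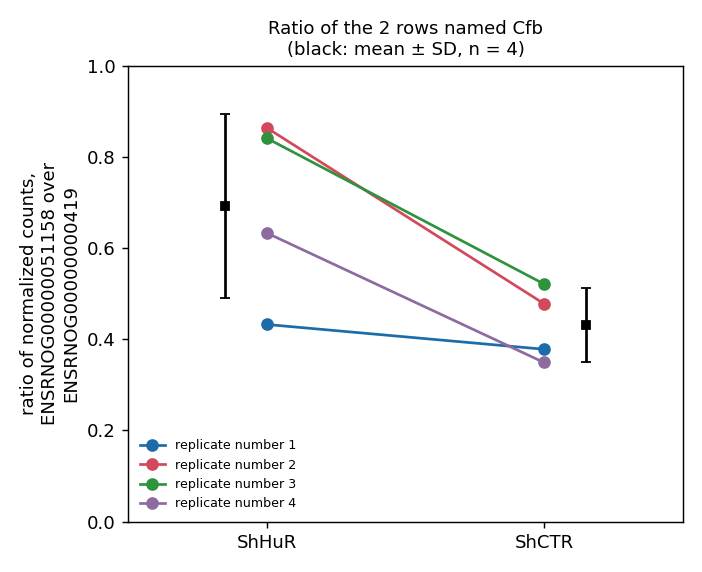
Ratio of normalized counts of the 2 rows named Cfb (vertical axis, no unit) in ShHuR and ShCTR libraries, with lines joining the same replicate number and black squares for the mean ± SD (n = 4). Every line is higher at ShHuR, and replicate 1, at 0.432 in ShHuR and 0.378 in ShCTR, changes least. The row with the larger log2 difference was chosen as numerator.

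Promoter sequences of 3 of the 7 genes, C3, C1r and Cd55, were in a RefSeq table (GRCr8) that gives 250 bases before and 50 bases after each start site. Those of C3, higher in ShHuR in every pair, and of Cd55, lower in 3 of 4 pairs, are shown 5′ to 3′ on the gene's strand to set their letters side by side. They lie at chr9:2201290-2201589, minus strand, for C3 and at chr13:44438052-44438351, minus strand, for Cd55. Capitals mark matches on either strand to the C/EBP motif TTNNGNAA, bound by a family of acute-phase transcription factors, or to 3 other motifs, the STAT motif TTCNNNGAA, the AP-1 motif TGANTCA and the TATA box TATAAA.
C3: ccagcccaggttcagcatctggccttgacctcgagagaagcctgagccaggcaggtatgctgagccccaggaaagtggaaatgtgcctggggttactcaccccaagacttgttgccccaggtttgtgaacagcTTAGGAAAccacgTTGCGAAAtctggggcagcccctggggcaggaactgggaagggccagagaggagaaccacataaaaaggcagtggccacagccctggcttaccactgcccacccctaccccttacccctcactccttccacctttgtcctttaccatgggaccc
Cd55: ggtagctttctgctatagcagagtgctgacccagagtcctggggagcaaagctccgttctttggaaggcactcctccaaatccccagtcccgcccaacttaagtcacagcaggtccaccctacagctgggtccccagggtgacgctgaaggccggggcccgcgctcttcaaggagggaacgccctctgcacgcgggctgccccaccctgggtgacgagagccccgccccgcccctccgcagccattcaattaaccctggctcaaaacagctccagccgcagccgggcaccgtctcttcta
The C3 window held 2 C/EBP matches, TTAGGAAA starting at -117 and TTGCGAAA starting at -104 from the start site, the second of which matches on both strands and so overlaps itself. It held none of the other 3 motifs, and the Cd55 window held none of the 4. The C1r window also held 2 C/EBP matches, although C1r differed little between groups. Among 33469 promoters of the same length 41.3% hold the C/EBP motif, 8.87% the STAT motif, 7.33% the AP-1 motif and 14.2% the TATA box. A match is a description of letters and not of binding.

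C1r and C1s encode the proteases that C1q activates in turn, and they are neighbours in the RefSeq table. C1s had 5086, 2490, 2343 and 2668 normalized counts in ShHuR replicates 1 to 4, against 6260, 2828, 3263 and 3543 in ShCTR replicates 1 to 4. Replicate 1 was high in both groups, and ShHuR was the lower library in each pair, with ratios between 0.718 and 0.881. The log2 difference was -0.34 (SE 0.11; blocked limma, adjusted p = 0.072), and in blocked edgeR its adjusted p was 0.0766. Blocked DESeq2 called C1s (adjusted p = 0.0324), and the authors' deposited table lists it at -0.33 (adjusted p = 0.0269). Scaled to library totals, the log2 difference of C1s was -0.22 (blocked limma, adjusted p = 0.196), or -0.34 relative to the median of all rows, against -0.36 on the authors' scaling.

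C1r had 9587, 7687, 5922 and 5555 normalized counts in ShHuR replicates 1 to 4, against 8701, 9061, 7381 and 5892 in ShCTR replicates 1 to 4. It was the steadiest of the 7 genes, with a highest library 1.73 times the lowest, and ShHuR was lower in 3 of 4 pairs. Its log2 difference was -0.13 (SE 0.14; blocked limma, adjusted p = 0.549). The ratio of C1r to C1s within a library was 1.88, 3.09, 2.53 and 2.08 in ShHuR replicates 1 to 4, against 1.39, 3.2, 2.26 and 1.66 in ShCTR replicates 1 to 4. The groups' ratios overlapped (exact permutation test, two-sided, p = 0.571, adjusted 0.571). C1rl, a relative of C1r that lies beside it and could share reads, had a log2 difference of 0.00 (SE 0.15; blocked limma, adjusted p = 0.999).

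Serping1 encodes the C1 inhibitor, the soluble brake on C1r and C1s. It was covered by only 21 to 76 reads per library. It had 60.8, 52.5, 46 and 30.4 normalized counts in ShHuR replicates 1 to 4, against 71, 17.6, 46.6 and 18.8 in ShCTR replicates 1 to 4. Pair 2 showed a ratio of 2.99 and pair 4 of 1.61, while pairs 1 and 3 were level or lower in ShHuR. With a log2 difference of 0.49 (SE 0.30; blocked limma, adjusted p = 0.288), Serping1 did not pass the test.

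Cd55 encodes decay-accelerating factor, the membrane protein that dismantles convertases. It had 4399, 3275, 666.4 and 1398 normalized counts in ShHuR replicates 1 to 4, against 6328, 2222, 4876 and 2916 in ShCTR replicates 1 to 4. The pairs did not move one way: the log2 differences were -0.52, 0.56, -2.87 and -1.06, so ShHuR was higher in pair 2 and was lowest against ShCTR in pair 3. The mean log2 difference was -0.97 (SE 0.46; blocked limma, adjusted p = 0.172). Without pair 3 it was -0.34 (adjusted p = 0.473), and without pair 2 it was -1.48 (adjusted p = 0.108). Of the variation in its log2 values, as sums of squares, 36.8% lay between replicate numbers, the lowest share of the 8 rows, and 24.1% between groups.

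Cd59 encodes the inhibitor of the membrane attack complex, and RefSeq lists the symbol as a synonym of rat Cd59b. It had 1755, 550.4, 484.6 and 586.4 normalized counts in ShHuR replicates 1 to 4, against 1641, 651, 720.4 and 720.5 in ShCTR replicates 1 to 4. Replicate 1 stood apart in both groups, and ShHuR was lower in the other 3 pairs. The log2 difference was -0.25 (SE 0.12; blocked limma, adjusted p = 0.186), and 93.1% of the variation in its log2 values lay between replicate numbers, the highest share of the 8 rows, against 3.66% between groups.

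**Figure D3:**
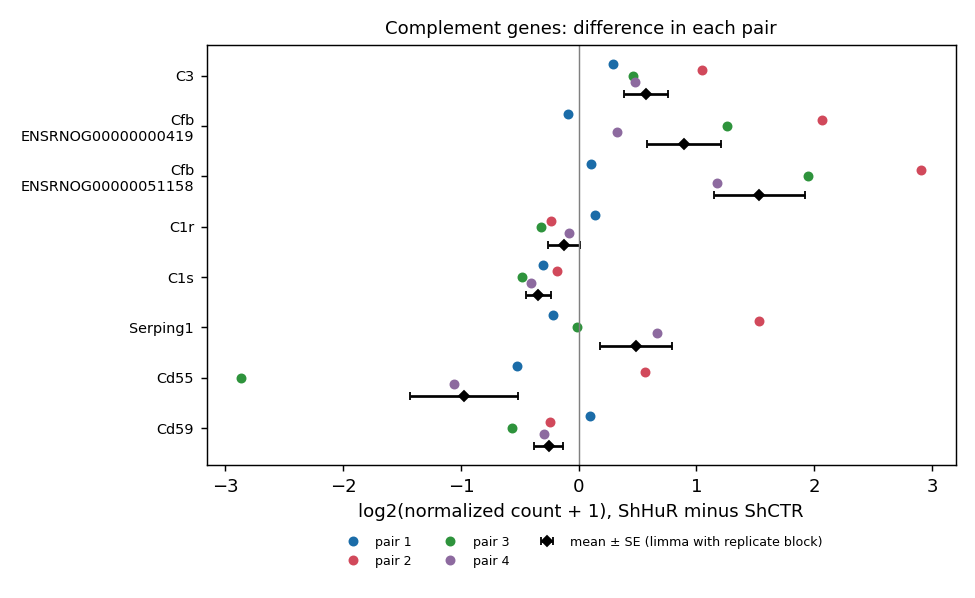
Log2 difference in normalized counts + 1, ShHuR minus ShCTR (horizontal axis), of the 8 complement rows in each of the 4 pairs (coloured points), with black diamonds for the mean ± SE of limma with the replicate block. C3 and the Cfb row ENSRNOG00000051158 lie right of 0 in every pair and C1s left of 0, while Cd55 spreads between -2.87 in pair 3 and 0.56 in pair 2.

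Patterns over the 8 libraries were compared by the root mean square difference of log2 values, each row centred on its own mean. Among complement rows C1s and Cd59 were closest, at 0.23, both being high in replicate 1 of each group. C3 and the Cfb row ENSRNOG00000000419 followed at 0.35, and C1s and C1r at 0.39, while the Cfb row ENSRNOG00000051158 and Cd55 were farthest apart at 1.91. Among 5908 rows above the median of mean expression the nearest to C3 were Ptprf, a receptor tyrosine phosphatase, at 0.21 and Grk5, a G-protein-coupled receptor kinase, at 0.26. The nearest to Cfb ENSRNOG00000051158 were the other Cfb row at 0.46 and Slpi, a secreted protease inhibitor, at 0.57, and to Cfb ENSRNOG00000000419 the membrane skeleton gene Epb41 at 0.33 and C3 at 0.35. Nearest to Cd55 were Cd200 at 0.29 and Lnx1 at 0.37, and to Serping1 Por at 0.32. The rows nearest to C1r, C1s and Cd59 lay closer than those nearest to the other member rows. They were Clstn1 (0.06) and Kank2 (0.07) for C1r, Ift43 (0.07) and Neo1 (0.10) for C1s, and Aasdhppt (0.06) and Timm50 (0.07) for Cd59. Of the variation in log2 values, 86.1% for C1r, 85.6% for C1s and 93.1% for Cd59 lay between replicate numbers. These distances describe the 8 libraries, of which same-numbered ones resemble each other.

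The rest of the pathway was read from a list of 49 other complement genes, of which 19 had a row and 13 passed the filter. Of those 13, 3 rose and 1 fell in blocked limma, against 7.16% and 8.05% of all tested rows. Their median log2 difference was 0.11, against 0.01 over all tested rows, with 10 above 0 and 3 below. Of all tested rows 51.2% lay above 0. Among the 10, C8g, C5ar2, C2 and Cd46 lay above 0 by less than their SE, and a shared direction was not tested. C4bpa, among those that rose, passed the filter through its ShHuR libraries, since in ShCTR only replicate 4 reached 10 counts. Its p-value and its place among the 3 that rose do not allow for that selection. In limma without the block 0 of the 13 passed, with 2 at an unadjusted p under 0.05, while edgeR without it called 0 and DESeq2 without it 1, Clu.

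The soluble regulators Clu and C4bpa rose, C4bpa with the limit on its filtering given above. Clu, clusterin, which binds terminal complement proteins and also acts as a chaperone outside cells, had 6923, 7329, 8715 and 6258 normalized counts in ShHuR replicates 1 to 4, against 4450, 1946, 2648 and 2385 in ShCTR replicates 1 to 4. Every ShHuR value lay above every ShCTR value, as in 2.52% of tested rows, and 81.7% of the variation in its log2 values lay between groups. Clu differed by a log2 value of 1.42 (SE 0.21; blocked limma, adjusted p = 0.0115; without the block, 0.188). C4bpa, the alpha chain of C4b-binding protein, had 28.9, 18.2, 77.3 and 195.5 normalized counts in ShHuR replicates 1 to 4, against 8.41, 4.39, 6.39 and 54.7 in ShCTR replicates 1 to 4, from 6 to 193 reads per library. It was higher in ShHuR in each pair, although the group ranges overlapped through ShCTR replicate 4. It differed by a log2 value of 2.18 (SE 0.33; blocked limma, adjusted p = 0.0125; without the block, 0.586). Scaled to library totals, the log2 difference of C4bpa was 1.66 (blocked limma, adjusted p = 0.0135), still called. That scaling moved the median of all rows up, from 0.01 to 0.13, and blocked edgeR on recovered reads gave C4bpa 2.22. Adding 1 before taking log2 understates changes of low genes, and its part in the value of 1.66 was not tested.

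Masp1, a protease gene of the lectin pathway, fell. It had 325.2, 397.9, 264.3 and 110.4 normalized counts in ShHuR replicates 1 to 4, against 434.3, 929.2, 672.9 and 247.3 in ShCTR replicates 1 to 4. ShHuR was lower in each pair, least in pair 1, and the group ranges overlapped. Its log2 difference was -1.03 (SE 0.16; blocked limma, adjusted p = 0.0128; without the block, 0.635).

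Among receptors Itgax, the alpha chain of complement receptor 4, rose. It had 135.2, 268.6, 439.7 and 181.3 normalized counts in ShHuR replicates 1 to 4, against 110.2, 187.5, 158.9 and 70.8 in ShCTR replicates 1 to 4. ShHuR was higher in each pair, by a log2 difference of 0.90 (SE 0.21; blocked limma, adjusted p = 0.033; without the block, 0.632). Its partner chain Itgb2 did not pass the filter, with 3.04, 12.1, 30.3 and 16.2 normalized counts in ShHuR replicates 1 to 4, against 2.8, 5.13, 8.22 and 2.69 in ShCTR replicates 1 to 4. Of 12 leukocyte and macrophage markers 3 had a row, Cd14, Cd68 and Csf1r, and none of the 3 passed blocked limma, where their adjusted p-values were 0.162, 0.56 and 0.797. Their sum ran from 563 to 1290 in ShHuR and from 333.9 to 992.8 in ShCTR libraries, and its part in the values of Itgax, C3 and Cfb was not tested.

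The remaining list genes did not pass blocked limma. The membrane regulator Cr1l, known in rodents as Crry, had a log2 difference of -0.11 (SE 0.13), Cd46 of 0.11 (SE 0.71), C5ar2 of 0.05 (SE 0.26) and C8g of 0.05 (SE 0.27). Colec11, Cd93 and C1qbp had 0.36 (SE 0.35), 0.72 (SE 0.39) and 0.35 (SE 0.11), with adjusted p-values in blocked limma of 0.491, 0.226 and 0.0607. Reads per library ran from only 1 to 20 for Cd46, 7 to 44 for C8g, 4 to 38 for Colec11 and 4 to 150 for C5ar2. Their values therefore do not show an absence of change. C1qbp encodes a mostly mitochondrial protein that binds the globular heads of C1q. It was higher in ShHuR in 4 of 4 pairs, as were 22.3% of tested rows. Scaled to library totals it passed (blocked limma, adjusted p = 0.0361), a scaling that moved the median of all rows to 0.13. Relative to the median of all rows its log2 difference was 0.35 so scaled and 0.34 on the authors' scaling. Fcna, a ficolin, was under the filter, with 1.52, 12.1, 21.9 and 8.1 normalized counts in ShHuR replicates 1 to 4, against 0.934, 2.93, 5.48 and 0.896 in ShCTR replicates 1 to 4. The authors' deposited table lists it at 1.02 with an adjusted p of 0.0387. Cfp, Csmd1, Csmd2 and Csmd3 were also under the filter, and C1qa, C1qb, C1qc, C4a, C4b, C5, Cfd and Cfi are not analysed here.

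**Figure D4:**
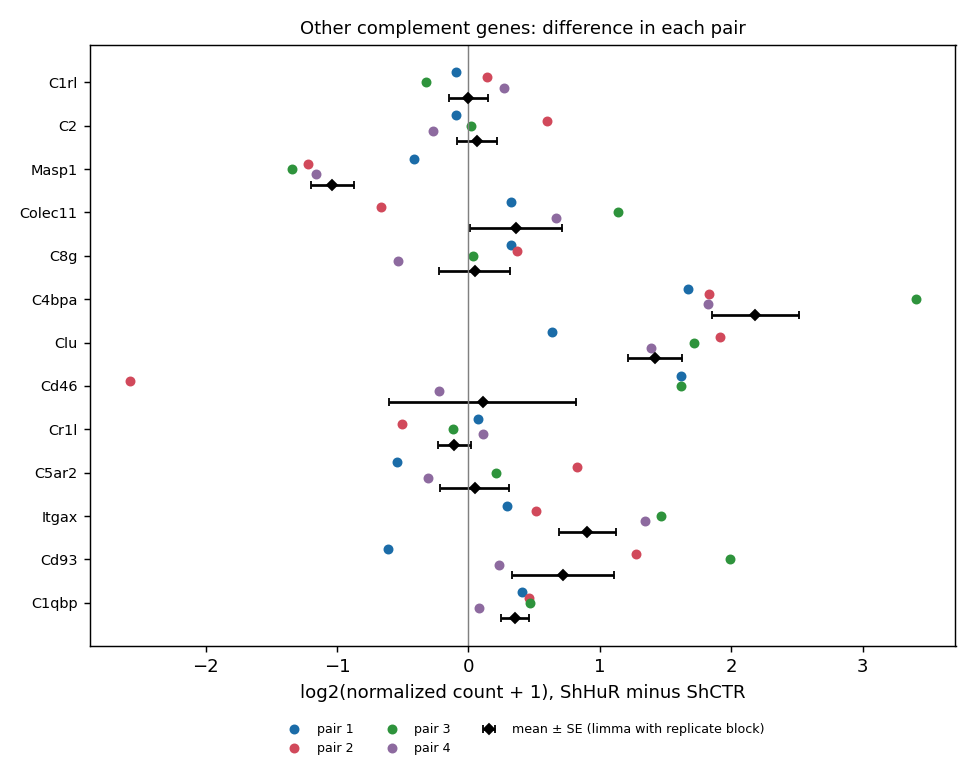
Log2 difference in normalized counts + 1, ShHuR minus ShCTR (horizontal axis), of the 13 other complement genes that passed the filter, in each of the 4 pairs (coloured points), with black diamonds for the mean ± SE of limma with the replicate block. C4bpa, Clu and Itgax lie right of 0 and Masp1 left of 0 in every pair.

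The list genes did not pass in every fit that left out a pair. On leaving out pair 2, blocked limma returned adjusted p-values of 0.0661 for Clu, 0.0643 for C4bpa, 0.0758 for Masp1 and 0.0966 for Itgax, and on leaving out pair 4 it gave 0.0759, 0.0776, 0.0813 and 0.143. Without pair 3 Itgax was at 0.0983 and the other 3 still passed, and without pair 1 all 4 passed. Their log2 differences kept their direction in each of these fits, between 1.25 and 1.67 for Clu and between 1.77 and 2.35 for C4bpa, and between -1.24 and -0.93 for Masp1. Those fits test fewer samples, and over the whole table blocked limma called 2831, 62, 523 and 0 rows on leaving out pairs 1, 2, 3 and 4 in turn.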

How the data were processed

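Total RNA was depleted of ribosomal RNA and made into stranded libraries, per the labels' protocols. Not given in the sources used here are the aligner, the counting program, the build, the annotation and any strand setting. The deposited values are a normalized signal, gene counts divided by 1 factor per library by the authors. In every column 100% of values were whole multiples of its step, to within 0.01 read, and reads were recovered from that. The step of ShHuR replicate 2 is so close to 1 that an automatic test cannot apply to it. The authors also deposited log2 fold changes and adjusted p-values under DESeq2's column names.

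Members and lists were chosen with earlier results of these data known. In the sheet of all genes identifiers stand out of register with symbols (3 of 2114 rows matched by value had the same identifier, 2114 the same symbol), so rows were found by symbol and identifiers taken from the sheet of called genes. Symbols turned into dates, 21 rows, stayed unnamed.

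Values were analysed as log2(value + 1), which understates changes of low genes, by two-sided tests in limma 3.58.1 (R 4.3.3) with a trend of variance on mean, and p-values were adjusted over 11847 rows by Benjamini and Hochberg's method. Recovered reads were tested with edgeR 4.0.16 and DESeq2 1.42.0, and the limma, edgeR and DESeq2 functions were tested on simulated data. No block was in the fit chosen first. Same-numbered libraries deviated together from their group means over tested rows, with correlations of 0.871, 0.785, 0.627 and 0.773. Each was over the limit of 0.1 set for pairing, so blocked values are printed. Across numbers, ShHuR replicate 2 with ShCTR replicate 3 gave 0.624, and ShHuR replicate 3 with ShCTR replicate 2 gave 0.427. The other correlations across numbers were negative. The values thus do not clearly tell numbers 2 and 3 apart. The authors' column names do carry the same S code for both libraries of a replicate number, so the matching of libraries is the authors' own. What a number marks is not in the labels. No libraries of a group agreed within sampling noise (chi-square per degree of freedom 43.5 to 188.5). Named genes were the 7 members, Elavl1, the list of other complement genes, and the 2 rows nearest in pattern to each member row; 2 genes these rules name are not reported here and were left out of the list's counts.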

Additional observations from a re-analysis of the deposited data

Results flagged for a closer look

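In 6 of 42 groups of 4 libraries, over the member rows and the tested list genes, 1 library lay so far from the others that it passed Dixon's criterion, which chance meets in about 1 group in 20. C1s was highest in ShHuR replicate 1, at 5086 normalized counts. Cd59 was highest in ShHuR replicate 1, at 1755, and in ShCTR replicate 1, at 1641. C4bpa was highest in ShCTR replicate 4, at 54.7. Cd93 and C1qbp were highest in ShCTR replicate 1, at 251.2 and 1432 normalized counts. In 5 of the 6 groups flagged the far library was replicate 1 of ShHuR or ShCTR. Replicate 1 stood apart over the whole table, and the meaning of that number is not given in the labels.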

How the results depend on the processing

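Without the replicate block limma called 0 rows of the table, 0 complement rows and 0 list genes. With the replicate block it called 1802, 1 and 4. The blocked counts were 1787, 1 and 4 at a pseudocount of 0.5, 1831, 1 and 4 at 5, 1770, 1 and 4 without a filter, 1648, 1 and 4 after quantile normalization, 2008, 2 and 5 on library totals, and 573, 0 and 3 without a trend. EdgeR with the block called 1845, 1 and 4, DESeq2 with the block 2053, 4 and 4, and DESeq2 without it 248, 0 and 1. Leaving out 1 library without the block gave 0 to 105 rows, the most without ShHuR replicate 1, and 0 complement rows and 0 list genes. Leaving out pairs 1 to 4 in turn with the block gave 2831, 62, 523 and 0 rows, with 0 to 2 complement rows and 0 to 5 list genes. The cause of these differences was not tested. Scaled to library totals, 1309 rows were higher and 699 lower in ShHuR, against 848 and 954 on the authors' scaling. Alternatives for the single member rows were compared with the unblocked fit, in which 0 complement rows passed. Of these 193 kept direction and side of the threshold, 14 passed it where the unblocked fit did not, and 1 turned. Keeping side thus means not being called. The 193 include the fits that lost the blocked call of Cfb ENSRNOG00000051158, without pair 2, 3 or 4 or without a trend. The 1 that turned was Cd59, at 0.056 without ShCTR replicate 1, in a range down to -0.68 without ShHuR replicate 1. Summing the Cfb rows was chosen after seeing the data. Serping1 was covered by 21 to 76 reads per library and C4bpa by 6 to 193, so counting error weighs more on them than on genes with more reads. The same holds for Cd46, C8g, Colec11 and C5ar2.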
